A study of Mus musculus with 28 samples.

Results

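The transcription factor gene Myc and 38 genes of ribosome assembly were followed over 9 treatment-by-time groups of CTLL2, a line of mouse cytotoxic T cells. The 39 genes were taken by symbol from a list that names no measured value, and all 39 were found among the 30608 genes in the table. RNA was sequenced in 28 libraries from cells given fresh complete medium with or without exosomes, the small vesicles released by B16F0 mouse melanoma cells, at a final 0.2 mg/ml. Untreated cells were taken at 0 h (n = 4) and at 0.5, 2, 4 and 8 h (n = 3 each), and exosome-treated cells at 0.5, 2, 4 and 8 h (n = 3 each). All groups had the same medium change, the exosomes came in phosphate-buffered saline, and no vehicle control is named in the labels. A single cell line was used, of strain C57BL/6 per the labels. The replicates are called biological in the series design. The sample descriptions place 9 libraries, 1 per group, in batch 1 and the other 19 in batch 2.

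MYC is a transcription factor that binds DNA with its partner MAX, often at E-boxes of the form CACGTG, and genes for ribosome production are among its best-known targets. In the nucleolus RNA polymerase I transcribes the precursor of ribosomal RNA, small nucleolar ribonucleoproteins (snoRNPs) guide its chemical modification and cleavage, and separate sets of assembly factors build the small and the large subunit. T cells that are driven to grow by antigen or interleukin-2 raise MYC and enlarge their nucleoli.

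Depth was between 6072984 and 24085812 recovered reads per library, and the scarcest value of any of the 39 genes, Wdr12 in 1 library, still rested on 94 reads. All 39 passed the filter on low values. The 16 T-cell markers checked, among them Cd3e, Cd8a and Il2ra, summed to between 132447 and 194233 normalized counts in every library, and the 7 B-cell markers to at most 147. Of the T-cell markers Gzmb (30625 to 54827) and Ptprc (23256 to 30462) were highest. Cd3e stood at 2437 to 4047, while Cd8a was only at 46.8 to 162 and Cd28 at 2.49 to 44.4. The 10 fibroblast markers summed to 18402 to 23209, of which Thy1, which mouse T cells express, was 18269 to 23119, while Col3a1, Dcn, Pdgfra and Fn1 were at 0 in the median library. The 10 macrophage markers summed to 506 to 726, mostly from Cd68 (266 to 544) and Cd14 (140.1 to 243.5), with Lyz2, Adgre1 and C1qa at 0 in the median library. The 14 skeletal muscle markers summed to 536 to 4339, with Ckm at 398 to 1042 and Myh4 at 0 in the median library and 630.6 in the highest. Several libraries stood apart. The share of genes at 0 was 15.7% in replicate 1 of untreated cells at 4 h, 22.0% in replicate 3 of exosome-treated cells at 8 h, and 27.8% to 39.9% in the rest. Acta1, the skeletal muscle actin gene, was at 75.2 to 415.3 normalized counts in 8 libraries and at most 4.71 in the other 20. The 8 were exosome 0.5 h replicates 1 and 3, untreated 2 h replicate 2, exosome 2 h replicate 2, exosome 4 h replicates 1 and 2, and untreated 8 h replicates 1 and 2. These are bulk samples, in which fewer cells of a kind and less RNA per cell cannot be told apart.

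Per kilobase of coding sequence, a rough scale because the counts also cover untranslated exons, the genes for abundant nucleolar proteins led. Mean levels over all libraries were 6491 normalized counts per kb for Ncl (nucleolin), 5252 for Npm1 (nucleophosmin, a nucleolar chaperone) and 3171 for Nhp2, a core protein of H/ACA snoRNPs. Myc stood at 1667 on the same scale, close to the RNA helicase gene Ddx21 at 1675. The lowest levels per kb were those of Rrp12 (144), Polr1b (148), the gene for the second largest subunit of RNA polymerase I, and Utp20 (168), a very long protein of the small subunit processome. Exons of 21 of the 39 genes overlap another annotated gene, 18 of them one on the opposite strand, and the snoRNA hosts Ncl, Gnl3, Nop56, Nop58 and Ppan contain snoRNA genes. Whether counting used strand is not given in the sources used here, so reads of such pairs may not have been kept apart.

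Myc, on chromosome 15 from 61985391 to 61990374 of GRCm38 (ENSMUSG00000022346.14), was higher 0.5 h after the medium change and back near its starting level by 2 h. In batch 2 it stood at 2748, 2630 and 2393 normalized counts at 0 h, and in batch 1 at 1374. Untreated cells at 0.5 h had 3316 and 3403 in batch 2 and 1719 in batch 1. Within each batch every 0.5 h library was above every 0 h library, while the 0 h and 0.5 h values overlapped across batches. At 0.5 h the change from 0 h was 0.37 ± 0.06 (limma log2 fold change on log2(normalized count + 1) with batch in the model, ± SE), a rise of 28.9% (adjusted p = 0.00504). It measured 0.32 in batch 1 and 0.38 in batch 2. Without untreated 0.5 h replicate 1, the batch 1 library, the change was 0.35 with an adjusted p of 0.0625.

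Exosome-treated cells at 0.5 h had 3434 and 3310 normalized counts of Myc in batch 2 and 1664 in batch 1, close to untreated cells at that time in the same batch. By 2 h untreated cells had 2262 and 2544 in batch 2 and 1249 in batch 1, below every 0.5 h library of the same batch. Between 0.5 and 2 h Myc fell by 0.48 ± 0.07 on the log2 scale (limma, adjusted p = 0.00017), by 0.46 in batch 1 and 0.49 in batch 2, and the fall passed the test in all 28 fits with 1 library left out. At 4 h the levels were 2461 and 2725 in batch 2 and 1400 in batch 1, and at 8 h 2548 and 2865 in batch 2 and 1293 in batch 1. Neither later step passed the test, and at 2, 4 and 8 h Myc differed from 0 h by -0.11, 0.02 and 0.02 (limma adjusted p = 0.449, 0.953 and 0.832). By batch-adjusted means of untreated cells 0.5 h was highest, followed by 8, 4, 0 and 2 h, and the neighbours 8 and 4 h, 4 and 0 h, and 0 and 2 h did not differ past limma's test.

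**Figure D1:**
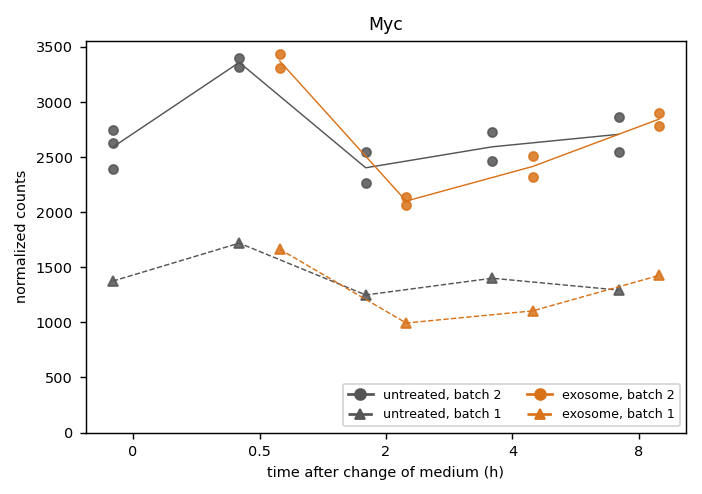
Normalized counts of Myc (vertical axis, linear) against time after the change of medium in h (horizontal axis, evenly spaced times), 1 point per library, untreated in grey and exosome-treated in orange, circles for batch 2 and triangles for batch 1, with lines through the means of each treatment and batch. In both batches the 0.5 h points are the highest, at 1719 and 1664 in batch 1 and from 3310 to 3434 in batch 2, and batch 1 lies below batch 2 throughout.

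The shape of the Myc course was compared with that of 10112 genes averaging 100 or more normalized counts, by the root mean square difference of log2 profiles over the 9 group means after batch adjustment. The closest were Klf6 (0.069), a zinc-finger transcription factor gene, Crebrf (0.092), Jmy (0.092), Mxi1 (0.093), Pim1 (0.095) and Cited2 (0.095). Mxi1 encodes an antagonist that competes with MYC for MAX, and Pim1 encodes a kinase induced by cytokines such as interleukin-2. All 6 were highest in a 0.5 h group and lowest in a 2 h group, like Myc, which follows from picking them by its profile. Ranking by Pearson's r over the same 9 groups kept 5 of these 6 and put Calcoco1 in place of Jmy. None of the 38 assembly genes was near: the closest, Gar1, ranked 5845.

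Among 16 partners and antagonists of MYC, of which 13 were tested, 1 rose at 0.5 h (0.169% of all genes called higher) and 4 fell between 0.5 and 2 h (1.46% called lower). Mycn, which encodes N-MYC, also rose, with a larger log2 change than Myc, a difference between the genes that was not tested. It stood at 465 ± 40.2 normalized counts at 0 h (SD, n = 4), 879.7 ± 92.6 in untreated cells at 0.5 h (n = 3) and 1014 ± 124 in exosome-treated cells at 0.5 h (n = 3). Its change at 0.5 h was 0.93 ± 0.10 (limma, adjusted p = 3.88e-06), and it fell by 0.84 ± 0.11 from 0.5 to 2 h (adjusted p = 3.81e-05). Mycl was not above 1 normalized count in any library and was not tested. Max, the shared partner, lay between 860 and 1177 normalized counts and Mxd1, another antagonist, between 118 and 324.

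None of the 38 ribosome assembly genes passed the test at 0.5 h. Myc was the single gene of the 39 called then, in a comparison where 0.189% of all 14828 genes tested were called and 0.169% called higher. The median of the other 38 was -0.07 against 0.00 over all genes tested, and 5 of the 39, Myc included, lay above 0 against 50.6% of all genes. At 2 h 4 assembly genes were higher than at 0 h and none lower, against 1.83% of all genes called and 0.83% called higher. They were Gnl3, Ppan, Wdr43 and Rrs1. The median of the 39 was 0.14 against 0.00 over all genes, and 35 lay above 0 against 50.5% of all genes. The count was 8 without untreated 0 h replicate 1, the batch 1 library, 2 without untreated 0 h replicate 2, 3 or 4 or untreated 2 h replicate 3, and 1 without untreated 2 h replicate 2. Here and below, calls over all genes are not given for fits with 1 library left out. Such counts of members therefore cannot be set against the share of all genes.

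Gnl3, also called nucleostemin, encodes a GTP-binding nucleolar protein of dividing cells. Batch 2 libraries held 927, 978 and 997 normalized counts at 0 h, and the batch 1 library 932. At 2 h untreated batch 2 libraries held 1504 and 1463 and the batch 1 library 1046. All 3 libraries at 2 h were above all 4 at 0 h. The change was 0.50 ± 0.10 (limma, adjusted p = 0.00493), 0.17 in batch 1 and 0.62 in batch 2, and it passed the test in all 28 fits with 1 library left out. At 4 h levels were 1182 and 1199 in batch 2 and 797.5 in batch 1.

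Ppan, which encodes a large subunit assembly factor, stood at 774, 749 and 694 normalized counts in batch 2 and 676 in batch 1 at 0 h. At 2 h it stood at 1192 and 1044 in batch 2 and 739.6 in batch 1. The batch 2 libraries at 2 h were above every 0 h library, while the batch 1 library lay inside the 0 h range. The change was 0.47 ± 0.09 (limma, adjusted p = 0.0036), with 0.13 in batch 1 and 0.60 in batch 2. Without untreated 2 h replicate 2, a library with Acta1, it was 0.39 with an adjusted p of 0.051.

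Wdr43, a protein that couples rRNA transcription to early processing, was at 2175, 2106 and 2214 normalized counts in batch 2 and 2188 in batch 1 at 0 h. At 2 h it was at 2979 and 2976 in batch 2 and 2328 in batch 1, above every 0 h library. Rrs1, a nucleolar factor of large subunit assembly, was at 1029, 992 and 993 in batch 2 and 805 in batch 1 at 0 h, and at 1366 and 1349 in batch 2 and 818 in batch 1 at 2 h. Its batch 1 library at 2 h lay below the batch 2 libraries at 0 h. The changes were 0.37 ± 0.08 for Wdr43 (limma, adjusted p = 0.0196) and 0.32 ± 0.07 for Rrs1 (adjusted p = 0.0212). Leaving out 1 library ended the call in 6 of 28 fits for Wdr43 and 5 of 28 for Rrs1, with adjusted p-values up to 0.0828 and 0.0996. For Wdr43 these were any one of the 3 batch 2 libraries at 0 h or of the 3 untreated libraries at 2 h, and for Rrs1 any one of the same 0 h libraries or untreated 2 h replicate 2 or 3.

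**Figure D2:**
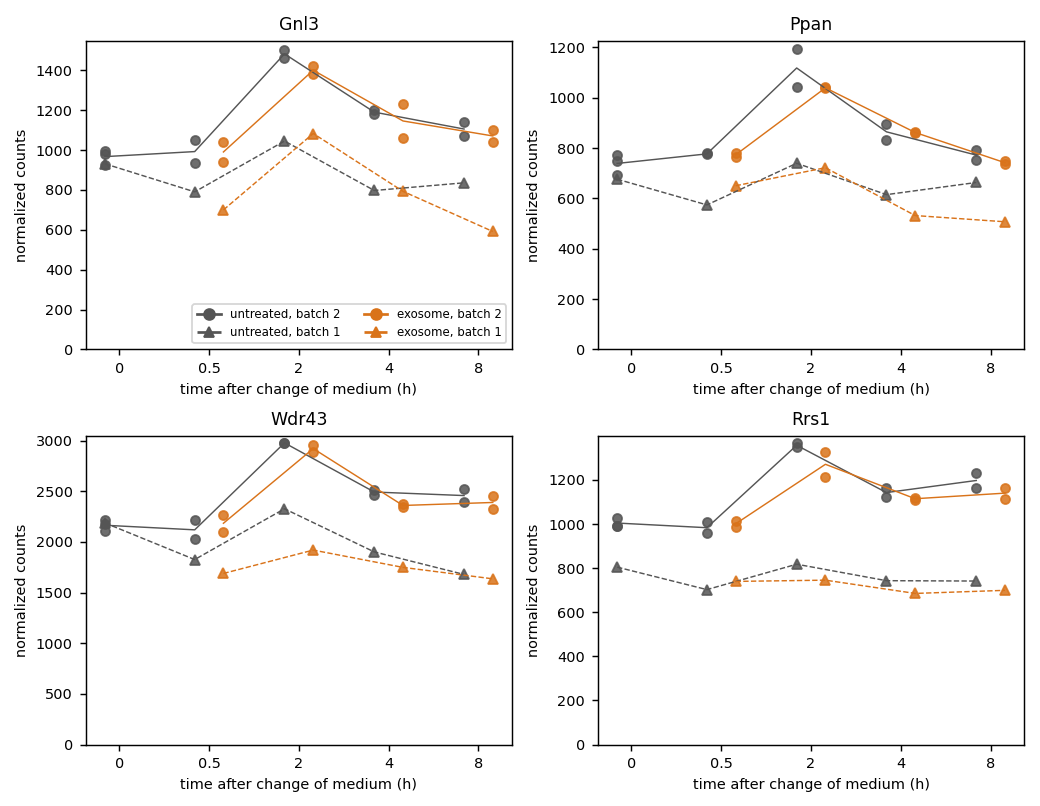
Normalized counts (vertical axes, linear) of Gnl3, Ppan, Wdr43 and Rrs1 against time in h (evenly spaced times), 1 point per library, untreated in grey, exosome-treated in orange, circles for batch 2 and triangles for batch 1, with lines through the means of each treatment and batch. In batch 2 all 4 genes are highest at 2 h (Gnl3 at 1504 and 1463 in untreated cells), and the batch 1 line of Rrs1 stays between 685 and 818 throughout.

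Measured from 0.5 h instead of 0 h, the step to 2 h was called for 7 of the 39 genes, 6 higher and Myc lower, where 1.89% of all genes were called, 0.425% higher and 1.46% lower. The 39 had a median of 0.20 in this step against 0.00 over all genes tested, and 38 lay above 0 against 50.7% of all genes. Gnl3 (0.52 ± 0.10), Ppan (0.47 ± 0.09), Wdr43 (0.44 ± 0.09), Nop2 (0.39 ± 0.10), Rrs1 (0.38 ± 0.08) and Nob1 (0.32 ± 0.07) were the genes that rose, with limma adjusted p-values from 0.00505 to 0.0354. Nop2 encodes an rRNA methyltransferase of the large subunit, and Nob1 the endonuclease that makes the final cleavage of small subunit rRNA. At 0.5 h untreated batch 2 libraries held 1052 and 934 normalized counts of Gnl3, 775 and 779 of Ppan, and 2214 and 2025 of Wdr43, and the batch 1 library held 790.6, 574 and 1826. For Nop2 the untreated libraries held 1056 and 1054 in batch 2 and 797 in batch 1 at 0.5 h, and 1629 and 1468 in batch 2 and 836 in batch 1 at 2 h. Of these 4 genes only the values of Wdr43 did not overlap between 0.5 and 2 h once both batches were pooled, and within each batch all 4 were higher at 2 h. Differences in batch 1 were 0.40 for Gnl3, 0.37 for Ppan, 0.35 for Wdr43, 0.22 for Rrs1 and 0.40 for Nob1, beside 0.58, 0.52, 0.49, 0.46 and 0.28 in batch 2. For Nop2 they were 0.07 and 0.55. Without the 8 libraries with Acta1, 5 of the 7 were called; Gnl3 was then at 0.50 (adjusted p = 0.0529) and Nop2 at 0.30 (adjusted p = 0.18). Gnl3 and Ppan were each called in 27 of the 28 fits with 1 library left out: without untreated 0.5 h replicate 3 the adjusted p of Gnl3 was 0.0557, and without untreated 2 h replicate 2 that of Ppan was 0.0602. The count of 7 was 4 without untreated 0.5 h replicate 2, and 3 without untreated 0.5 h replicate 3 or untreated 2 h replicate 2.

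Some members with larger values in this step have a CACGTG word next to the start site, the form of E-box named above, and 4 of these promoters are shown for that word. RefSeq promoter windows of 300 bases on GRCm38.p6 were matched for 33 of the 39 genes by symbol. CACGTG, which reads the same on both strands, was found in 8 of the 33 (24.2%): Wdr43, Nop2, Tsr1, Grwd1, Utp20, Mybbp1a, Pes1 and Ltv1. It was found in 7.15% of all 32851 windows of the same length, in 8.09% of genes with a window and in 11.5% of tested genes with one. The looser word CANNTG, which contains CACGTG, was found in 63.6% of the 33 and 75.0% of all genes with a window. Of the 8, the 4 with the largest values between 0.5 and 2 h are printed; Wdr43 and Nop2 passed the test in this step, and Tsr1 (0.39, limma adjusted p = 0.113) and Grwd1 (0.36, adjusted p = 0.155) did not. The sequences are given 5′ to 3′ on the strand of the gene, with CACGTG in capitals. They are Wdr43 (chr17:71615965-71616264, plus strand, first base of the word at position 18 after the start site), Nop2 (chr6:125131633-125131932, plus strand, position -60), Tsr1 (chr11:74897830-74898129, plus strand, position 25) and Grwd1 (chr7:45830740-45831039, minus strand, position 35).
Wdr43: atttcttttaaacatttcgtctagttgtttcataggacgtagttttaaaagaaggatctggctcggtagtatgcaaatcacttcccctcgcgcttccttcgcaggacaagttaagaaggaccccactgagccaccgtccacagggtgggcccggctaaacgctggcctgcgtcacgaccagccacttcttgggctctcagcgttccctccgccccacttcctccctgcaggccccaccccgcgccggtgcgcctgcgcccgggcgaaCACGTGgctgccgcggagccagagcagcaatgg
Nop2: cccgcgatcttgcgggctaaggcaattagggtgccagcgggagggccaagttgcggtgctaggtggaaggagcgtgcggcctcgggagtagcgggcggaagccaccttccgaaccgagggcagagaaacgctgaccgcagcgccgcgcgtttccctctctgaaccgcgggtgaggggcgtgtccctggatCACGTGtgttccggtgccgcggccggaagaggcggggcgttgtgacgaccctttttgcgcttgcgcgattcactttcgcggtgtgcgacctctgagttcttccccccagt
Tsr1: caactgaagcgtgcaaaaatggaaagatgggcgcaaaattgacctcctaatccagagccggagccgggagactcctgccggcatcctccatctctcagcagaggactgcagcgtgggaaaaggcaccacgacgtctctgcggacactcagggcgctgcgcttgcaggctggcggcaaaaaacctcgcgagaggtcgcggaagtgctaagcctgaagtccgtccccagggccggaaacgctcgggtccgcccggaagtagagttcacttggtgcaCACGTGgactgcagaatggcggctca
Grwd1: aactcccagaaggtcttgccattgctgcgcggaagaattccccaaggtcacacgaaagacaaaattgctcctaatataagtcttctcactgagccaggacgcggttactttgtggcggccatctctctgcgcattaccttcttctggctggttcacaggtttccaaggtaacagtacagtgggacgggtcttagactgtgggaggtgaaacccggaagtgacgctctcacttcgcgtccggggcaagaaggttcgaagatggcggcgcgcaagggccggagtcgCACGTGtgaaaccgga
A match is a description of these letters and not a site of binding. Gnl3 and Ppan rose in the same step and their windows hold no CACGTG, which says only that the word is not in those 300 bases.

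At 4 h 1 of the 39 genes passed the test against 0 h, where 1.19% of all genes were called and 0.223% called higher. Bop1, which with Pes1 and Wdr12 forms the PeBoW complex of large subunit maturation, was at 1996, 1708 and 1720 normalized counts in batch 2 and 1579 in batch 1 at 0 h. At 4 h it was at 2132 and 2256 in batch 2 and 1844 in batch 1. Batch 1 at 4 h overlapped batch 2 at 0 h, but within each batch the 4 h libraries were higher. The change was 0.27 ± 0.07 (limma, adjusted p = 0.0429), 0.22 in batch 1 and 0.28 in batch 2. It lost the call in 12 of 28 fits with 1 library left out, with adjusted p-values up to 0.259, and without untreated 0 h replicate 1 the count at 4 h was 4. The median of the 39 was 0.14 against 0.01, and 37 lay above 0 against 51.7% of all genes.

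At 8 h 6 of the 39 genes were higher than at 0 h and none lower, in a comparison in which 31.7% of all genes tested were called and 15.9% called higher. The 15.4% of members called higher was thus close to the share of all genes. The count was 3 without untreated 0 h replicate 2 or 4, and 2 without untreated 0 h replicate 3, untreated 8 h replicate 1 or untreated 8 h replicate 2. Nhp2 changed most: batch 2 libraries stood at 1334, 1427 and 1431 normalized counts at 0 h and 2160 and 1807 at 8 h, and batch 1 libraries at 1097 and 1559. All 3 libraries at 8 h were above all 4 at 0 h. Its change was 0.50 ± 0.12 (limma, adjusted p = 0.00455), 0.51 in batch 1 and 0.50 in batch 2, and it was called in all 28 fits with 1 library left out.

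Pes1 stood at 912, 988 and 947 normalized counts in batch 2 and 947 in batch 1 at 0 h, and at 1195 and 1146 in batch 2 and 1120 in batch 1 at 8 h, again with no overlap. It rose by 0.28 ± 0.08 (limma, adjusted p = 0.00815), and was also called in all 28 fits with 1 library left out. Fbl, the methyltransferase of box C/D snoRNPs, stood at 668, 660 and 774 in batch 2 and 510.5 in batch 1 at 0 h, and at 1035 and 827 in batch 2 and 600.2 in batch 1 at 8 h. Within each batch its 8 h libraries were the higher ones. Grwd1, a nucleolar WD-repeat protein, stood at 498, 499 and 416 in batch 2 and 314 in batch 1 at 0 h, and at 614 and 625 in batch 2 and 323 in batch 1 at 8 h. Fbl rose by 0.34 ± 0.13 (adjusted p = 0.0498) and Grwd1 by 0.30 ± 0.11 (adjusted p = 0.0429), and these calls were lost in 19 and 6 of the 28 fits, with adjusted p up to 0.285 and 0.144. Bop1 (0.20 ± 0.07) and Nop16 (0.26 ± 0.10) were the others called, with Nop16 at -0.13 in batch 1 and 0.41 in batch 2.

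Untreated 8 h replicates 1 and 2 were among the 8 libraries with Acta1. Without those 8, 1 untreated library is left at 8 h, so only sizes of change are given for that time. Nhp2 was then at 0.37 and Pes1 at 0.26. The same left-out set gave 1 call at 0.5 h (Myc), 2 at 2 h and 1 at 4 h (Bop1), where 31, 329 and 260 of 14561 genes were called. At 2 h the members were Gnl3 (0.48, limma adjusted p = 0.0456) and Ppan (0.38, adjusted p = 0.0258). Between 4 and 8 h Fbl rose by 0.61 ± 0.14 (limma, adjusted p = 0.0269) and Polr1a, the largest subunit of RNA polymerase I, fell by 0.55 ± 0.16 (adjusted p = 0.0439), where 6.35% of all genes were called, 2.85% higher and 3.5% lower. Polr1a stood at 2364 and 2826 normalized counts in batch 2 and 1936 in batch 1 at 4 h, and at 1730 and 2301 in batch 2 and 1045 in batch 1 at 8 h. Its groups overlapped, its call was lost in 13 of 28 fits with 1 library left out (adjusted p up to 0.201). Without the 8 libraries with Acta1 Polr1a was at -0.17, and with the trend on coding length removed at -0.30 (limma adjusted p = 0.0955). Fbl lost its call in 3 of the 28 fits (limma adjusted p up to 0.164) and was at 0.50 without the 8 libraries with Acta1. Without untreated 8 h replicate 3, which left only untreated libraries with Acta1 at 8 h, the count for this step was 7. The untreated 8 h libraries left, replicates 1 and 2, had slopes of change on coding length of -0.29 and -0.18 (log2 per doubling). The share of all genes called in that fit is not given, so the 7 cannot be set against it. Without untreated 2 h replicate 1 or exosome 2 h replicate 2, libraries of batch 1, the count for this step was 4. Between 2 and 4 h no member passed limma's test (0.499% of all genes called), and DESeq2 called 1, Ppan, lower. In that step DESeq2 called 186 of 14828 genes, 121 of them lower.

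Over the whole untreated course, limma's F test called 16 of the 39 genes, 41.0%, where 21.6% of all genes were called. They were Myc, Ppan, Gnl3, Bop1, Wdr43, Nop16, Rrs1, Nob1, Fbl, Nhp2, Ftsj3, Dkc1, Nop58, Grwd1, Pes1 and Nop2, with adjusted p-values from 0.000431 for Myc to 0.0459 for Nop2. By fitted means 14 of the 39 were highest at 2 h, 17 at 4 h and 7 at 8 h, with Myc alone highest at 0.5 h and none highest at 0 h. Without untreated 0 h replicate 1 the F test called 25 members, without untreated 0.5 h replicate 2 it called 10 and without untreated 8 h replicate 2 it called 8. Leaving out the 8 libraries with Acta1 keeps 1 untreated library at 8 h, and no F test count is given for that fit.

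Values within the batches are given apart. In batch 2, fitted with a separate mean for each group and batch, 17 members were higher at 2 h than at 0 h and none lower, where 3.3% of all genes were called and 1.74% called higher. At 4 h 13 were higher and none lower (4.62% of all genes called, 2.06% higher), and at 8 h 17 higher and none lower (26.5%, 13.6% higher). At 0.5 h Myc alone was higher (0.263%, 0.236% higher). The 17 at 2 h were, from the largest change, Gnl3 (0.62 ± 0.07), Ppan (0.60 ± 0.07), Polr1b (0.54 ± 0.09), Grwd1 (0.54 ± 0.10), Tsr1 (0.53 ± 0.07), Rrp1b (0.51 ± 0.07), Wdr43 (0.46 ± 0.06), Nop2 (0.45 ± 0.08), Rrs1 (0.43 ± 0.06), Nop58 (0.43 ± 0.06), Nop56, Rrp12, Bysl, Noc3l, Dkc1, Ftsj3 and Ddx21. Tsr1 encodes a GTPase-like factor of late small subunit maturation. By role they included 7 of 13 large subunit factors, 4 of 10 small subunit factors, 2 of 4 box C/D and U3 snoRNP proteins (Nop56 and Nop58), 1 of 3 H/ACA snoRNP proteins (Dkc1) and 1 of 2 polymerase I subunits. In every batch 2 library from 2 h on, treated or untreated, the median of the 39 lay above the batch 2 mean at 0 h, by 0.21 to 0.29 at 2 h, 0.17 to 0.28 at 4 h and 0.12 to 0.22 at 8 h. At 0.5 h it lay between -0.05 and 0.02. In these later libraries between 30 and 38 of the 39 genes were above 0 h.

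In batch 1 the median of the 39 was below the 0 h library in all 8 later libraries, by -0.08 to -0.27. At 2 h 2 members were called higher (Nhp2, 0.62; Npm1, 0.38) and 4 lower (Polr1a, -0.72; Mybbp1a, -0.65; Nolc1, -0.54; Polr1b, -0.47), where 13.9% of all genes were called, 7.92% higher and 6.02% lower. At 8 h Nhp2 was higher (0.51) and 14 members were lower (35.0% of all genes called, 16.5% higher and 18.5% lower), among them Polr1a (-0.95 ± 0.18), Utp20 (-0.88 ± 0.20), Nolc1 (-0.84 ± 0.17), a chaperone of snoRNPs, Mybbp1a (-0.74 ± 0.11) and Heatr1 (-0.72 ± 0.14), a partner of early rRNA transcription and processing. At 0.5 h and 4 h no member was called in batch 1 (0.0809% and 1.36% of all genes called). Every change in batch 1 is measured from 1 library at 0 h, and each group there is 1 library whose spread is taken from the batch 2 replicates. The untreated libraries of batch 1 at 2 and 8 h also stood apart by coding length: the slope of change on length was -0.19 in untreated 2 h replicate 1 and -0.29 in untreated 8 h replicate 1 (log2 per doubling of length), against -0.04 in the untreated batch 1 libraries at 0.5 and 4 h. Untreated 8 h replicate 1 held 202 normalized counts of Acta1. Polr1a, Utp20 and Heatr1 are among the longest of the 39 and Nhp2 is the shortest; the part of length in these changes was not tested.

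**Figure D3:**
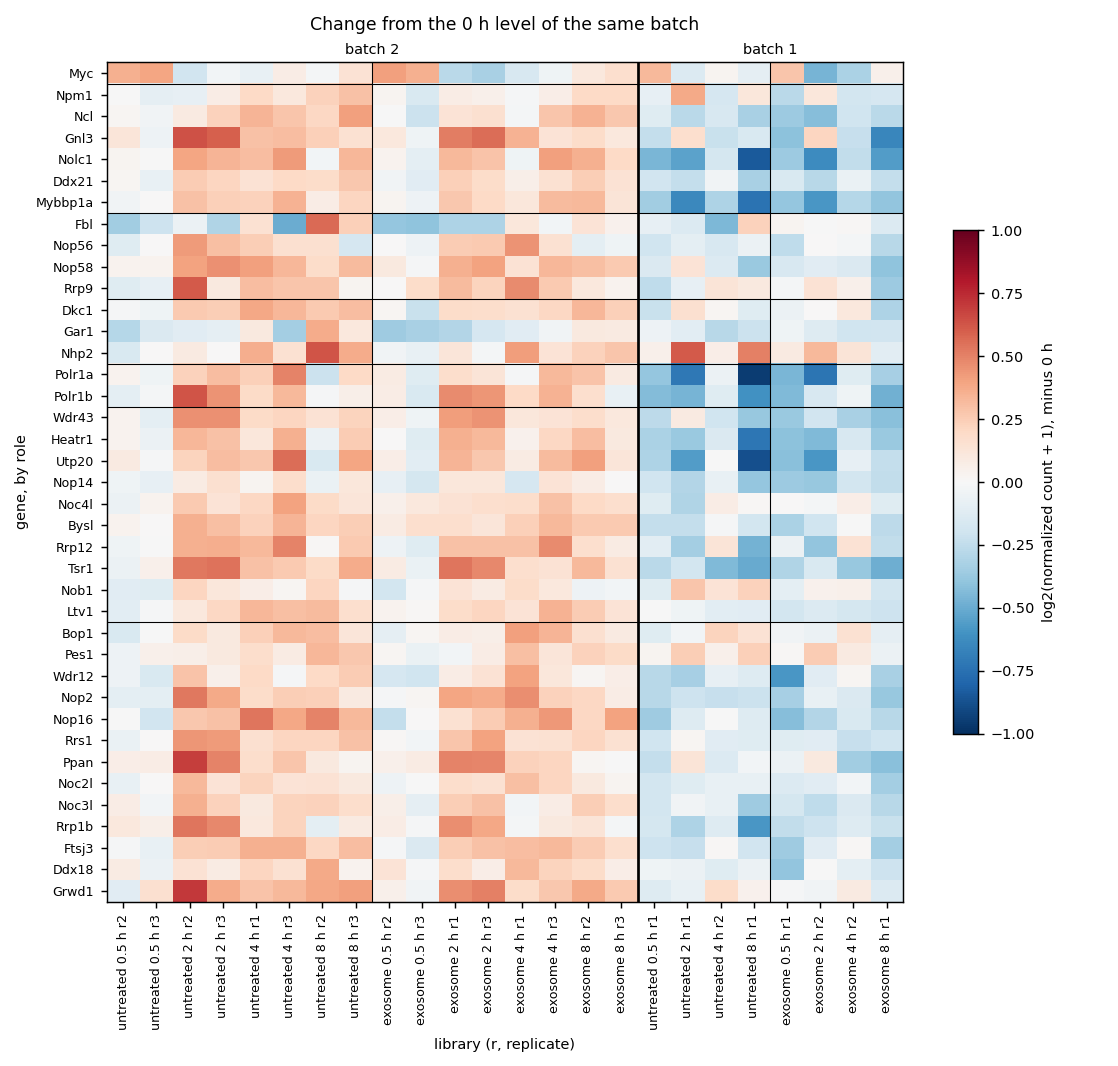
Change of each of the 39 genes (vertical axis, in order of role, separated by lines) in each of 24 libraries taken after 0 h (horizontal axis, batch 2 left and batch 1 right of the thick line, untreated before exosome-treated in each) from the 0 h level of the same batch, on the log2(normalized count + 1) scale from -1 in blue to 1 in red. Batch 2 is mostly red from 2 h on, with library medians of 0.12 to 0.29, batch 1 is mostly blue, with medians of -0.27 to -0.08, and Myc in the top line is red at 0.5 h in both.

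The difference between batches was fitted with each lone batch 1 library assumed to vary like the batch 2 replicates, so these calls have no replicate check within batch 1. Of the 39 genes, 17 had a lower change in batch 1 than in batch 2 at 2 h and none a higher one (7.74% of all genes called, 3.48% with the lower change in batch 1), 2 at 4 h (Tsr1 and Mybbp1a; 0.931% called, 0.371% lower) and 18 at 8 h (13.7% called, 8.19% lower). At 0.5 h 0 of 39 were called (0.027%). For Tsr1 the change at 2 h was 0.53 ± 0.07 in batch 2 and -0.18 ± 0.11 in batch 1, a difference of -0.71 ± 0.13 (limma, adjusted p = 0.00515). Gnl3 differed by -0.45 ± 0.14 at 2 h (adjusted p = 0.0524) and Nhp2 at 8 h by 0.01 ± 0.17 (adjusted p = 0.988). The rise of Myc at 0.5 h differed by -0.05 ± 0.14 (adjusted p = 0.965).

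Levels also differed between batches. With group in the model, 37 of the 39 genes were lower in batch 1 and none higher, where 57.6% of all genes were called and 28.5% called lower. The median was -0.44 against 0.01 over all genes tested. Myc was the most different (limma adjusted p = 7.34e-18), at 0.501 of its batch 2 level, followed on the log2 scale by Polr1b (-0.85 ± 0.06), Grwd1 (-0.84 ± 0.06) and Utp20 (-0.75 ± 0.08). Npm1 (-0.04 ± 0.05, adjusted p = 0.498) and Pes1 (-0.01 ± 0.04, adjusted p = 0.869) did not pass the test. For Myc the highest batch 1 library (1719 normalized counts) was below the lowest batch 2 library (2061). The labels do not say what else separated the batches.

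None of the 39 genes passed limma's test for exosomes at any time, and DESeq2 called 1, Nob1 at 8 h, lower in treated cells. At 8 h DESeq2 called 953 of all 14828 genes tested, 541 of them lower. By limma, called genes made up 0.243% of all genes tested at 0.5 h, 0.189% at 2 h, 0.155% at 4 h, 0.452% at 8 h and 0.459% in the mean over the 4 times. In that mean 0 of 39 members were called by limma, by edgeR and by DESeq2, and 1, Myc, had an unadjusted p below 0.05. The mean effects ran from -0.10 for Nhp2 to 0.04 for Polr1b. Their median was -0.03, against -0.0006 over all genes tested. Of the 39, 31 were below 0 and 8 above, against 49.6% of all genes above 0. The 95% intervals of all 39 lay between -0.23 and 0.19, which is 0.851 to 1.14 times the untreated level. In this fit an effect outside 0.25 on the log2 scale in either direction thus lay outside the interval of every member when averaged over the 4 times. The intervals do not allow for coding length. With the trend on coding length removed, the median was -0.07 against -0.02 over all genes. In that fit 6 members had an unadjusted limma p below 0.05 and 0 were called, where 62 of 11596 genes were called. The intervals at single times were wider, from -0.63 to 0.66 at 8 h.

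**Figure D4:**
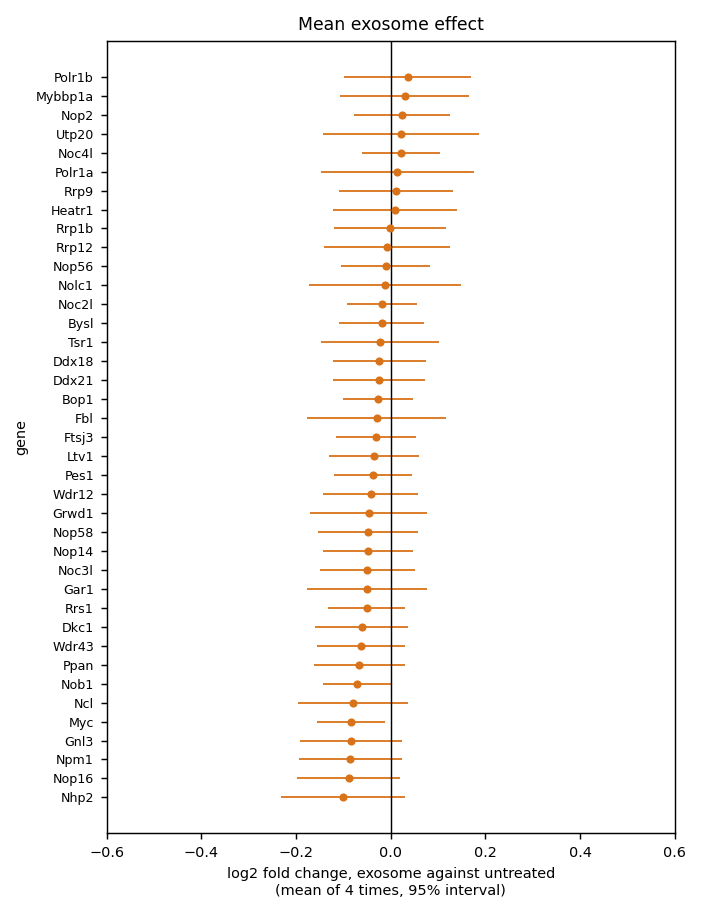
Mean exosome effect of each of the 39 genes (vertical axis, ordered by effect) as a limma log2 fold change, exosome against untreated over the 4 times with equal weight (horizontal axis), points with 95% intervals. The points lie between -0.10 (Nhp2) and 0.04 (Polr1b), and the interval of Myc alone does not include 0 before adjustment for the number of genes tested.

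Myc had the smallest p of the 39 at 2 h. Exosome-treated cells held 2141 and 2061 normalized counts in batch 2 and 994 in batch 1 at 2 h, each below both untreated libraries of batch 2 or the 1 of batch 1. The difference was -0.24 ± 0.07 (limma, adjusted p = 0.766), -0.33 in batch 1 and -0.19 in batch 2. At 4 h treated cells held 2317 and 2513 in batch 2 and 1104 in batch 1, a difference of -0.18 ± 0.07 (limma, adjusted p = 0.92). At 0.5 and 8 h the differences were -0.01 ± 0.07 and 0.10 ± 0.07, with 2784 and 2905 in batch 2 and 1426 in batch 1 for treated cells at 8 h. In the mean Myc was at -0.08 ± 0.03 (limma, adjusted p = 0.973), with a 95% interval from -0.15 to -0.01, and Nob1, the next by p, was at -0.07 ± 0.03 (adjusted p = 0.973). An F test for a change of the exosome effect with time called 0 members and 0.0% of all genes.

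The other members with the smallest p were Rrp9, the U3 snoRNP protein (0.21 ± 0.12), and Wdr12 (-0.16 ± 0.10) at 0.5 h, Nob1 (-0.12 ± 0.07) at 2 h, Fbl (0.30 ± 0.14) at 4 h, and Nob1 (-0.23 ± 0.07) and Nhp2 (-0.37 ± 0.13) at 8 h, with limma adjusted p-values between 0.0793 and 1.00. At 8 h Nob1 was at 847 and 863 normalized counts in treated batch 2 libraries and 664 in batch 1, against 1021 and 870 in untreated batch 2 libraries and 882 in batch 1, so that all 3 treated libraries were below all 3 untreated ones. Without untreated 8 h replicate 3, 4 members were called at 8 h, and the share of all genes called in this fit is not given. The untreated 8 h libraries left were replicates 1 and 2. Both held Acta1 (202 and 206 normalized counts) and had steep slopes of change on coding length (-0.29 and -0.18 log2 per doubling). The 4 members were Nob1 (-0.31, limma adjusted p = 0.00378) and Nhp2 (-0.43, adjusted p = 0.0281), lower, and Polr1a (0.51, adjusted p = 0.0211) and Utp20 (0.54, adjusted p = 0.0115), higher. Their coding lengths are 1.21, 0.459, 5.15 and 8.37 kb, and the part of length in these calls was not tested. Without exosome 4 h replicate 1 Nob1 was called (adjusted p = 0.0488).

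By batch, the mean exosome effect over the 39 genes had a median of -0.01 in batch 2 and -0.07 in batch 1, with 0 members called in either (0.479% and 0.229% of all genes) and 0 in their difference (0.0337%). Markers of melanocytes, the cell type from which melanoma arises, summed to 94.7 to 336 normalized counts in treated libraries and 41.8 to 167 in untreated ones. In batch 1 the sums were 94.7 to 176 treated and 41.8 to 83.7 untreated, and in batch 2 206 to 336 and 112 to 167. Within each batch every treated library was thus above every untreated one. Over all libraries Gpnmb stood at 29.9 to 167 normalized counts, Tyrp1 at 0 to 76.3 and Tyr at 0 to 6.62, the last 2 with a median of 0. The part of these markers in the values was not tested.

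Change at 8 h went with coding length. Across the 11596 tested genes with a coding length, Spearman's rho between length and the untreated change from 0 h to 8 h was -0.49, and across the 39 members -0.72. For the exosome effect at 8 h, which shares the untreated 8 h libraries, the values were 0.52 and 0.68. Genes are not independent replicates, and all points come from the same libraries. Nhp2 (coding length 0.459 kb) was at 0.50 at 8 h and -0.37 in the exosome comparison, and Polr1a (5.15 kb) was at -0.28 and 0.33. Utp20 (8.37 kb) and Heatr1 (6.43 kb) had signs like those of Polr1a. At 2 h against 0 h the values were -0.33 over all genes and -0.13 over the members, and at 0.5 h -0.07 and 0.04. For the mean exosome effect over the 4 times they were 0.36 and 0.64.

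**Figure D5:**
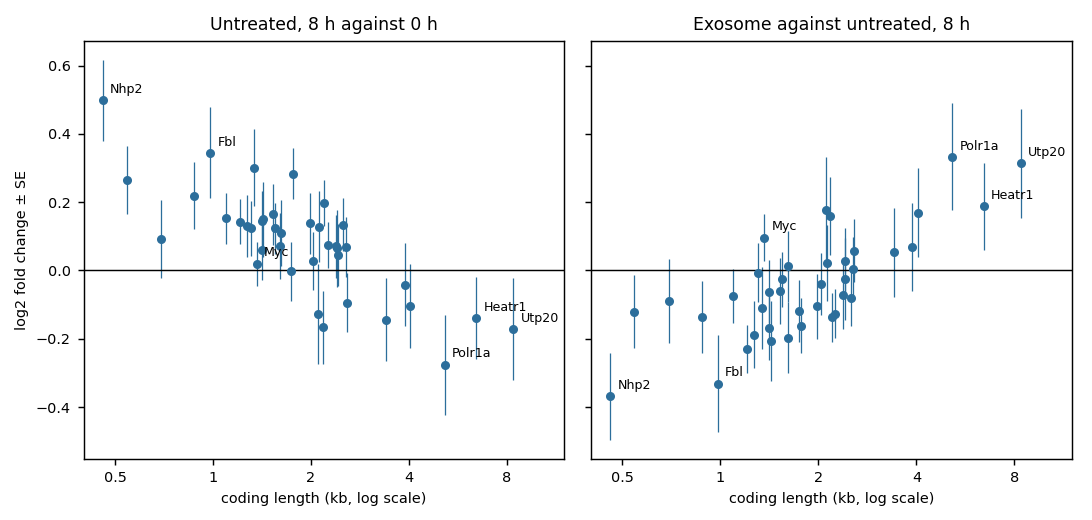
Log2 fold change ± SE (vertical axes) of the 39 genes against coding length in kb (horizontal axes, log scale), for untreated cells at 8 h against 0 h (left) and for exosome-treated against untreated cells at 8 h (right). Short genes lie above 0 on the left and below 0 on the right, with Nhp2 at 0.50 and -0.37, and long genes such as Polr1a the reverse, at -0.28 and 0.33.

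The slope of change on coding length was steepest in untreated 8 h replicate 1 (-0.29 on the log2 scale per doubling of length, over 9250 genes), untreated 2 h replicate 1 (-0.19), untreated 8 h replicate 2 (-0.18), exosome 2 h replicate 2 (-0.18) and exosome 4 h replicate 1 (-0.14). The other libraries lay between -0.06 and 0.02. The length trend was also removed from each library before a new fit over the 11596 genes with a coding length. The calls at 2 h were then 4, including Gnl3 (0.51) and Ppan (0.46), and at 4 h 3. At 8 h they were 4, among them Nhp2 (0.28, limma adjusted p = 0.0201) and Pes1 (0.34, adjusted p = 0.00523). Over all genes 312, 199 and 2766 were called at 2, 4 and 8 h. The rise of Myc at 0.5 h was then 0.36 (adjusted p = 0.0102).

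Ribosome assembly genes outside the 39 were given as lists of the same pathway. At 2 h against 0 h, where 0.83% of all genes were called higher, 3 of 37 other small subunit processome genes were higher and none lower, with Rcl1 (0.33 ± 0.07), Wdr75 (0.26 ± 0.07) and Utp4 (0.25 ± 0.06) called, and the median was 0.13. Of 42 other large subunit genes 1 was higher, the export adaptor Nmd3 (0.42 ± 0.09), with a median of 0.14. Of 15 other genes of the polymerase I machinery Taf1a was higher (0.36 ± 0.09), and of 21 genes of the polymerase III machinery Polr3d (0.46 ± 0.10), with medians of 0.13 and 0.01. Ubtf and Rrn3, which activate polymerase I, lay between 4160 and 6597 and between 909.7 and 1324 normalized counts over all libraries. Of 32 other known MYC targets 0 were called at 2 h, with a median of 0.09. Over all genes tested the median was 0.00.

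Within batch 2, 6 of 37 small subunit genes, 10 of 42 large subunit genes and 5 of 32 other MYC targets were higher at 2 h, where 1.74% of all genes were called higher. At 8 h 18, 14 and 19 were higher and 0, 2 and 1 lower, where 13.6% of all genes were called higher. At 4 h against 0 h in the fit of both batches, Ubtf, the activator of polymerase I, was higher (0.25 ± 0.06, limma adjusted p = 0.0157), as were Rcl1 (0.36 ± 0.07), Mrto4 (0.36 ± 0.09) and Srm (0.52 ± 0.12), the spermidine synthase gene. At 8 h 11 of 37 small subunit, 11 of 42 large subunit and 11 of 32 other MYC target genes were higher, against the 15.9% of all genes. In the mean exosome effect 0 genes of these lists were called, with medians between -0.04 and 0.02.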

How the data were processed

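Total RNA from CTLL2 cells was extracted with TRIzol and sequenced as paired reads, per the labels' protocols. Per the submitters' processing notes, the tools were featureCounts 1.5.0, STAR 2.4.2, DESeq2, CASAVA 1.8.4 and R 3.3.2, with the build GRCm38.p2. The authors deposited 1 table of normalized counts, a signal made of gene counts divided by a size factor per library. Every value was a whole multiple of its library's step within 0.01 read (100% of values in every library), which gave the recovered reads. The sources used here do not give the annotation release or the use of strand.

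Genes with at least 10 normalized counts in at least 3 libraries (14828) entered the test as log2(normalized count + 1), fitted in R 4.3.3 by limma 3.58.1 to 9 group means and batch (18 residual degrees of freedom) and Benjamini-Hochberg adjustment over all genes tested; an adjusted p below 0.05 was called. Adding 1 understates changes of low genes. Changes within batches came from a fit with 1 mean per group and batch (10 residual degrees of freedom). P-values measure the spread between these replicates. Values by library are given for Myc, for up to 4 called members per comparison and direction with the largest change of the same sign in both batches, and, where none was called, for up to 2 with the smallest p; other called members are named with fewer values. Of other lists up to 4 called genes are named, with Mxd1, Max, Mycn, Mycl, Ubtf and Rrn3 in any case. The 39 genes, the lists and the tests were chosen with earlier results of these data known. Promoter windows came from RefSeq on GRCm38.p6. Alternatives were edgeR 4.0.16 and DESeq2 1.42.0 on the recovered reads, other scalings, filters and added values, the batch term, a replicate block, batch 2 alone, and each library left out. The limma fit was also run on simulated counts that held no batch difference and no trend on coding length. That check therefore does not cover these features of the data. Same-numbered deviations correlated at 0.218 to 0.727 at 0.5, 4 and 8 h, where a number falls in the same batch in both treatments. At 2 h they correlated at -0.539 and -0.302 for numbers 1 and 2, which fall in different batches, and at 0.577 for number 3, which does not. As not every pair correlated above 0.1 and the labels tie no number to a shared culture or day, the numbers were not used as pairs.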

Additional observations from a re-analysis of the deposited data

Results flagged for a closer look

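At 0 h, the one group of 4 libraries, a single library lay far from the others for 4 of the 39 genes. The measure was the gap to the nearest library divided by the range of the group. Chance gives such a gap in about 1 of 20 groups of 4 like libraries. That rate does not hold here, as replicate 1 is of batch 1 and the others are of batch 2. The share over all genes is not given. The ratio was 0.861 for Npm1, whose lowest library (replicate 2) held 4086 normalized counts with the next at 4570. For Mybbp1a it was 0.866, with replicate 2 highest at 4856 and the next at 4596. It was 0.917 for Dkc1 and 0.837 for Rrs1, where replicate 1, the batch 1 library, was lowest at 985 and 805 and the next libraries stood at 1365 and 992.

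The change of untreated cells from 0 h differed between the batches for 17 of the 39 genes at 2 h, 2 at 4 h and 18 at 8 h (limma, adjusted p below 0.05 for the difference), in each case with the lower change in batch 1. Batch 1 holds 1 library per group, assumed in this fit to vary like the batch 2 replicates, and the part of any other difference between the batches was not tested.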

How the results depend on the processing

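Under the alternatives run, no value that passed a test changed direction. Members called out of 39 moved as follows. Without the batch term 0 were called at 0.5, 2 and 4 h against 0 h, 1 at 8 h, and 0 in the step from 0.5 to 2 h, the step from 4 to 8 h and the F test over time. Calls over all 14828 genes fell as well. At 0.5, 2, 4 and 8 h they were 12, 18, 10 and 1834, beside 28, 272, 177 and 4702 in the main fit. The same steps and the F test had 30, 3 and 367, beside 280, 941 and 3200. With a replicate block in place of batch, 0 were called in each of these 7 comparisons, and no exosome call changed. Over all genes that fit called 7, 1, 4 and 1007 at 0.5, 2, 4 and 8 h. It called 18 and 0 in the steps and 148 by the F test. The batch 1 library at 2 h carries number 1 in untreated and number 2 in exosome-treated cells, so that the block does not follow batch there. In batch 2 alone 18, 13 and 17 were called at 2, 4 and 8 h, 18, 2 and 1 in the steps from 0.5, 2 and 4 h, and 30 by the F test. Of the 14309 genes tested in batch 2 alone, 505, 716 and 3968 were called at 2, 4 and 8 h. The steps had 416, 114 and 488, and the F test 3545. Another alternative left out the 8 libraries with Acta1. It was chosen after seeing the data because the planned limit on summed muscle markers would have removed all libraries. At 2 h 2 members were then called, where 329 of 14561 genes were called. As 1 untreated library was left at 8 h, no counts are given for comparisons that use that group. With no filter on low values the counts were 0 at 4 h, 2 at 8 h, 1 from 4 to 8 h and 10 by the F test. Of 30608 genes 152, 3539, 133 and 2176 were called in these. DESeq2 called 4 at 4 h, 13 from 0.5 to 2 h, 1 from 2 to 4 h, 4 from 4 to 8 h and 1 for exosomes at 8 h. Over all 14828 genes it called 287, 423, 186, 1811 and 953 in these comparisons. Upper quartile scaling gave 3 at 8 h, where 4689 of 14828 genes were called. Without the 2 libraries with few genes at 0 the count was 0 at 4 h (78 of 14788 genes). With the coding-length trend removed, also chosen after seeing the data, it was 3 at 4 h and 1 from 4 to 8 h (199 and 532 of 11596 genes). Leaving out 1 library gave 0 to 1 at 0.5 h, 1 to 8 at 2 h, 0 to 4 at 4 h, 2 to 8 at 8 h, 3 to 9 from 0.5 to 2 h, 0 to 7 from 4 to 8 h, 8 to 25 by the F test over time, 0 to 4 for exosomes at 8 h and 0 to 2 by the F test of exosomes by time. Of the single-gene values followed through these fits, 131 lost the call, 6 gained it and 1 moved. Those values do not cover every member in every comparison, so the 6 are not all calls gained. In batch 2 alone, for example, only 4 of the 18 members called at 2 h were also called in the main fit. Calls over all genes are not given for the fits with 1 library left out. The causes were not tested. The number of libraries per arm and the depth both limit precision.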
